A study of Mus musculus with 8 samples.

Results

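Caveolae are flask-shaped pits of the plasma membrane, and Plvap is the protein of the diaphragms that span their openings. The genes described here code for 10 proteins of these structures: Plvap, the caveolins Cav1 and Cav2, the cavins Cavin1, Cavin2 and Cavin3, the membrane ATPases Ehd2 and Ehd4, and the membrane-bending proteins Pacsin2 and Pacsin3. They were taken by name, each through the probe sets that the array annotation gives to that gene alone, and the probe set with the highest mean over all arrays stood for the gene. Of the 10 genes, 9 had such a probe set, out of 18193 genes measured in this way. Pacsin2 had none and is not analysed here beyond its promoter.

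Caveolins insert into the inner leaflet of the membrane and form the coat of a caveola together with the cavins, while EHD ATPases sit at its neck and pacsins shape the curved membrane. In most endothelia caveolae are abundant and carry plasma proteins across the cell. The endothelium of the brain is known for few caveolae and little such transport, and its vessels lose Plvap as the blood-brain barrier forms.

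The cells were sorted on GFP from E13.5 embryos of homozygous Tie2-GFP transgenic mice, from cortex in 4 samples and from lung in the other 4. All embryos carried the transgene. Its GFP is under the promoter of Tie2, also called Tek, an angiopoietin receptor of endothelium, so any other cell with Tie2 promoter activity can enter the sort. Each sample pooled a litter of 10 to 13 embryos, and the samples were numbered 72, 22, 19 and 18 in both tissues. Cortex was cleared of meninges and choroid plexus, RNA (15 to 30 ng) was linearly amplified, and each sample was hybridised to 1 Affymetrix mouse whole-genome expression array. The comparison asks how vessels of the forming blood-brain barrier differ from those of a peripheral organ of the same age.

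All values below are deposited log2 expression values, so 1 unit is a doubling of signal, and differences are cortex minus lung. Array medians were 6.59 to 6.72. In the samples numbered 19 and 18 of both tissues a free-text description named the other tissue, while title, source name and tissue label named 1 tissue, and were used. The 23 measured neural marker genes had array means of 10.67 to 11.25 in cortex and 5.89 to 6.20 in lung, on the side of the titles. Endothelial markers were present in both tissues. Tek averaged 11.70 ± 0.84 in cortex and 12.93 ± 0.28 in lung (SD, n = 4 each). Pecam1, an adhesion protein of endothelial junctions, averaged 8.98 ± 1.06 in cortex and 10.46 ± 1.03 in lung, and Cdh5, the junctional VE-cadherin, 8.39 ± 1.09 in cortex and 9.65 ± 1.06 in lung. None of the 3 was called (adjusted p = 0.0575 for Tek, 0.149 for Pecam1 and 0.225 for Cdh5). Tek was called lower without cortex array 22 (0.0374) or 19 (0.0379), with array weights (0.0289), median centring (0.044), the replicate block (0.026) or the filter on dim probe sets (0.0403), and Pecam1 without lung array 18 (0.0417), without both arrays numbered 18 (0.0334), with array weights (0.0289) or with the replicate block (0.0176). A list of 33 pan-endothelial genes had means of 9.46, 10.77, 10.92 and 9.01 on cortex arrays 72, 22, 19 and 18, against 11.48, 11.47, 11.61 and 11.06 on the lung arrays in that order. Cortex arrays 72 and 18 thus stood apart by their low endothelial level. The neural mean was 11.22 and 11.25 on cortex arrays 72 and 18, against 11.01 and 10.67 on cortex arrays 22 and 19. A lower endothelial level in a bulk sample can come from fewer endothelial cells, less RNA per cell or lower expression of the listed genes. These cannot be told apart here.

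For 8 of the 10 genes RefSeq gives promoter windows in its GRCm38.p6 assembly, each of 300 bases, with 250 before the transcript start and 50 from it on, and 13 windows in all. Plvap and Cavin3 had no entry. The windows shown are those of the genes that carry the contrasts described below: Cavin2 with the largest difference between tissues, Cav1 and Cav2 as neighbours on 1 chromosome, and Pacsin3 as the gene that was not lower in cortex. Capitals mark exact matches, on either strand, to the letters searched.
Cavin2, chr1:51288876-51289175, plus strand: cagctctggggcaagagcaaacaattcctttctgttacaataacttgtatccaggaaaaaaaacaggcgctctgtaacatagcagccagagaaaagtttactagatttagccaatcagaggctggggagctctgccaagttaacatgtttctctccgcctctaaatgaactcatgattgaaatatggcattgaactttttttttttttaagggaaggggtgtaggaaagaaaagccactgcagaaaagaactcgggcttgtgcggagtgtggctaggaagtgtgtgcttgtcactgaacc
Cav1, first window, chr6:17306085-17306384, plus strand: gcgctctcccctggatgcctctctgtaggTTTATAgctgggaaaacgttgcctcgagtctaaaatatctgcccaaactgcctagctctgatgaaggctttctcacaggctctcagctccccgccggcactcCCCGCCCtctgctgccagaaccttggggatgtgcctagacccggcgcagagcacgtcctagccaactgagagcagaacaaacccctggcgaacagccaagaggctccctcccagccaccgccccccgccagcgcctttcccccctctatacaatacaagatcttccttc
Cav2, chr6:17280935-17281234, plus strand: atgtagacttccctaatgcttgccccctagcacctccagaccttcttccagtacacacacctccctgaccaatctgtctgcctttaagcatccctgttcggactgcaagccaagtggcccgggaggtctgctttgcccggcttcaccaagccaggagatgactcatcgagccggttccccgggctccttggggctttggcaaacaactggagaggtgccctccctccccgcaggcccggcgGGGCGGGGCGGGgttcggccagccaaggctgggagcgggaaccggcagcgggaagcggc
Pacsin3, first window, chr2:91256563-91256862, plus strand: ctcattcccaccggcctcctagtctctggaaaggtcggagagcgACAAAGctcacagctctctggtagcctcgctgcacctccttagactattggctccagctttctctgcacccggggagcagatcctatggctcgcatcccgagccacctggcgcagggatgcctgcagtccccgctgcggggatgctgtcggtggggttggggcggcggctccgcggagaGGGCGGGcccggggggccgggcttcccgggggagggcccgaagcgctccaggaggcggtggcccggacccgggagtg

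The motif searched for SP1 was GGGCGGG, and 8 of the 13 member windows held it, in Cav1, Cav2, Cavin1, Ehd2, Pacsin2 and Pacsin3, against 25.6% of all 32851 windows. The matches in the Cav2 window overlap each other. TATAAA (the TATA box) was in the first Cav1 window, on the minus strand, and in 13.6% of all windows. ACAAAG, a SOX motif, was in the Pacsin3 window shown and in 18.7% of all. CACACCC (KLF) occurred in the second Cav1 window and in 1 Pacsin2 window, against 7.95% of all, and AGATAAG, the motif of GATA factors, in 1 Pacsin2 window, against 3.04%. The ETS motifs CCGGAAG and CAGGAAG and the SOX motif ACAATG, in 8.86%, 13.3% and 12.6% of all windows, had no match in these 13. The Cavin2 window held none of the letters searched and had a GC content of 43.3%, against 59.3% in the first Cav1 window, 64.3% for Cav2, 69.7% for the first Pacsin3 window and a median of 52.7% over all windows. The 2 Cavin1 windows cover almost the same bases, so their matches are 1 stretch of sequence.

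The caveolar coat genes, both EHD genes and Plvap were lower in cortex than in lung. Of the 9 measured genes, 8 were called lower in cortex (limma, Benjamini-Hochberg adjusted p under 0.05 over all 18193 genes), 0 higher, and Pacsin3 was not called. Over all genes 7.71% were called lower, 10.4% higher and 18.1% in either direction. No cortex array reached a lung array for any of the 8, while 12% of all genes were without overlap on the low side in cortex. The median difference of the 9 genes was -2.16, and that of all genes was -0.09. The genes were taken up with earlier results of these data known, so these counts describe them and test nothing. The labels give no other source of replication than the pooled litters, so the p-values measure the spread between these arrays.

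**Figure D1:**
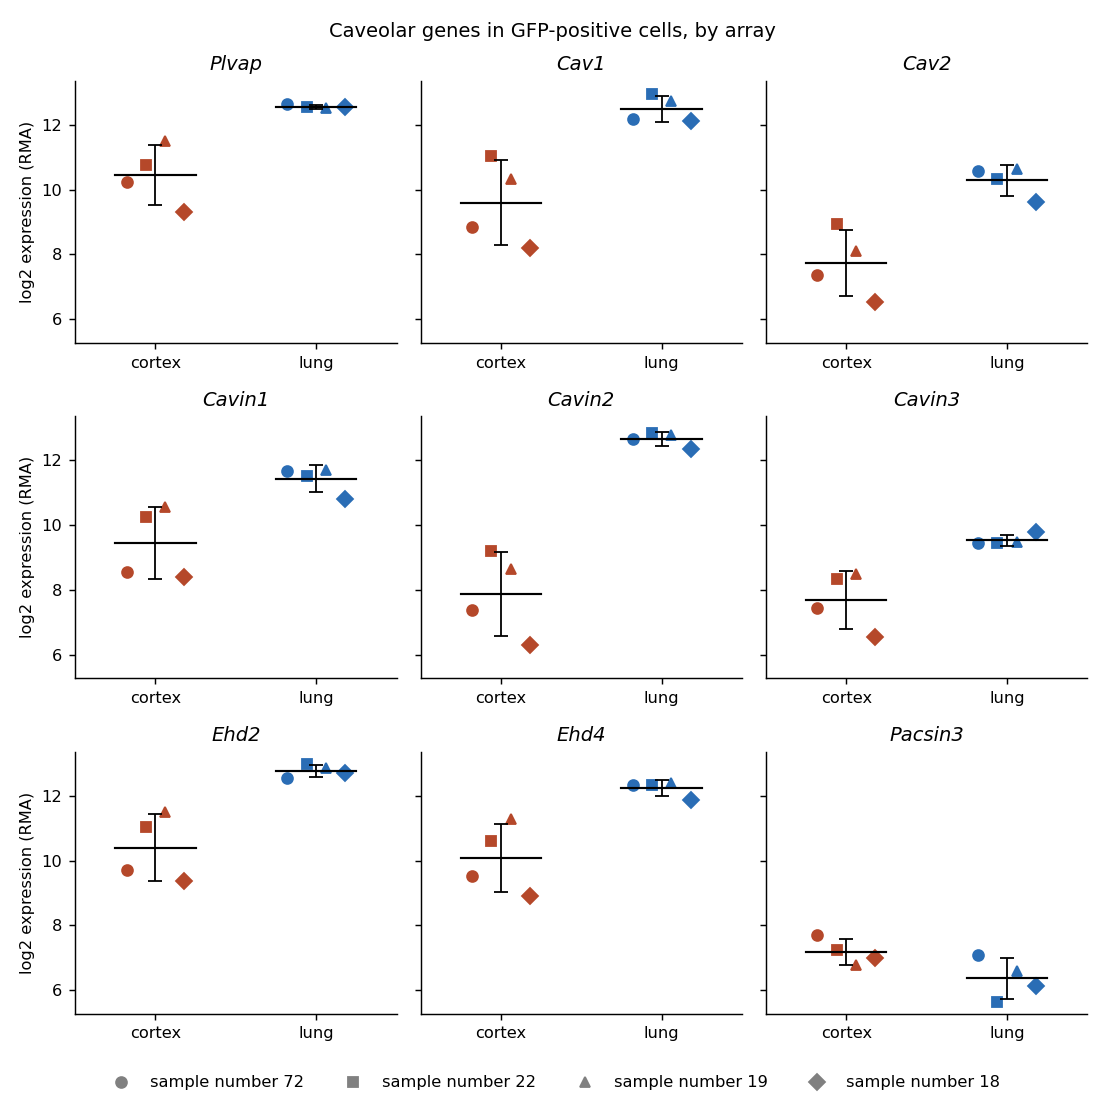
Deposited log2 expression of the 9 measured genes on each array, cortex left and lung right, with marker shapes for the sample number. Horizontal lines are means and bars SD over 4 arrays. In every panel but Pacsin3 the 4 cortex arrays lie below the 4 lung arrays, and cortex array 18 is the lowest.

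Plvap forms the diaphragms of caveolae and of fenestrae and is the antigen of an antibody long used to mark mouse endothelium. Its level was 10.25, 10.77, 11.51 and 9.32 on cortex arrays 72, 22, 19 and 18, against 12.64, 12.55, 12.51 and 12.54 on the lung arrays. The lung arrays lay within 0.13 of each other, while the cortex arrays spread over 2.19, and every cortex array was below every lung array. Plvap averaged 10.46 ± 0.92 in cortex and 12.56 ± 0.06 in lung (SD, n = 4 each), a difference of -2.10 (95% interval -3.01 to -1.19), or 4.28-fold lower in cortex (limma adjusted p = 0.00748). The gene was well above the median of all probe sets, 6.65, on all 8 arrays, the cortex arrays included.

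Cav1, the main structural caveolin of endothelium, gave 8.84, 11.03, 10.35 and 8.19 on cortex arrays 72, 22, 19 and 18, against 12.18, 12.95, 12.74 and 12.11 on the lung arrays. The closest pair between tissues, cortex array 22 and lung array 18, still did not overlap. The means were 9.60 ± 1.31 in cortex and 12.49 ± 0.41 in lung, with a difference of -2.89 (-4.22 to -1.56), 7.42-fold lower in cortex (adjusted p = 0.00994). Cav2, which enters the coat together with Cav1, gave 7.36, 8.93, 8.10 and 6.53 on the cortex arrays, against 10.58, 10.32, 10.63 and 9.61 on the lung arrays. Cortex array 18 was again the lowest, and lung array 18 was the lowest of its tissue. The Cav2 means were 7.73 ± 1.02 in cortex and 10.29 ± 0.47 in lung, a difference of -2.55 (-3.65 to -1.45), 5.87-fold lower in cortex (adjusted p = 0.00718).

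Cavin1, without which caveolae do not form in mouse, was at 8.57, 10.25, 10.58 and 8.40 on cortex arrays 72, 22, 19 and 18, against 11.68, 11.53, 11.71 and 10.82 on the lung arrays. Cortex array 19 came close to lung array 18, with the narrowest gap among the 8 lower genes. The mean was 9.45 ± 1.12 in cortex and 11.44 ± 0.42 in lung, a difference of -1.99 (-3.16 to -0.82), 3.96-fold lower in cortex (adjusted p = 0.0289). This was the least secure of the 8 calls: without cortex array 72, cortex array 18, or lung array 72, 22 or 19 the adjusted p was 0.077, 0.0661, 0.0624, 0.0681 or 0.0755, with differences of -1.96 to -1.64.

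Cavin2, which in mouse is needed for caveolae of lung endothelium but not of every vascular bed, had the largest difference of the 9 genes. It was at 7.36, 9.20, 8.66 and 6.30 on cortex arrays 72, 22, 19 and 18, against 12.65, 12.85, 12.77 and 12.36 on the lung arrays. Even the highest cortex array, 22, lay far below the lowest lung array, 18. The means were 7.88 ± 1.30 in cortex and 12.66 ± 0.21 in lung, a difference of -4.77 (-6.06 to -3.49), 27.4-fold lower in cortex (adjusted p = 0.000566). Cavin3, a cavin that binds protein kinase C delta, had 7.45, 8.32, 8.48 and 6.54 on the cortex arrays, against 9.45, 9.44, 9.47 and 9.79 on the lung arrays. Its lung arrays were tight except for array 18, which was the highest. Cavin3 averaged 7.70 ± 0.90 in cortex and 9.54 ± 0.17 in lung, a difference of -1.84 (-2.75 to -0.94), 3.59-fold lower in cortex (adjusted p = 0.0134).

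Ehd2, the ATPase that holds caveolae at the cell surface, was at 9.72, 11.03, 11.50 and 9.36 on cortex arrays 72, 22, 19 and 18, against 12.56, 12.99, 12.85 and 12.71 on the lung arrays. No cortex array reached the level of any lung array. The means were 10.40 ± 1.03 in cortex and 12.78 ± 0.19 in lung, a difference of -2.38 (-3.40 to -1.35), 5.19-fold lower in cortex (adjusted p = 0.00716). Ehd4, a relative that also acts in endosomal traffic, was at 9.54, 10.60, 11.27 and 8.90 on the cortex arrays, against 12.34, 12.35, 12.41 and 11.86 on the lung arrays. Lung array 18 was the lowest of its tissue and cortex array 18 the lowest of all. Ehd4 averaged 10.08 ± 1.06 in cortex and 12.24 ± 0.25 in lung, a difference of -2.16 (-3.23 to -1.09), 4.47-fold lower in cortex (adjusted p = 0.0140).

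Pacsin3, an F-BAR protein known from caveolae of muscle, was low in both tissues. It gave 7.70, 7.23, 6.76 and 6.99 on cortex arrays 72, 22, 19 and 18, against 7.09, 5.63, 6.58 and 6.11 on the lung arrays. The arrays overlapped, since lung array 72 lay above cortex arrays 19 and 18. The means were 7.17 ± 0.40 in cortex and 6.35 ± 0.62 in lung, with a difference of 0.82 (0.07 to 1.56) and an adjusted p of 0.129. Without lung array 72 the difference was 1.06 and passed the threshold (adjusted p = 0.0459).

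The 8 lower genes also shared a pattern within the cortex. Arrays 22 and 19 were the highest cortex arrays and array 18 was the lowest for all 8, as for the pan-endothelial mean. The SD over the cortex arrays was above that over the lung arrays for 8 of the 9 genes, all but Pacsin3, against 37.4% of all genes. For Cav1 the cortex arrays spanned 2.84 units and the lung arrays 0.84. Pacsin3 ran otherwise, with its lowest cortex value on array 19, where the pan-endothelial mean was highest.

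**Figure D2:**
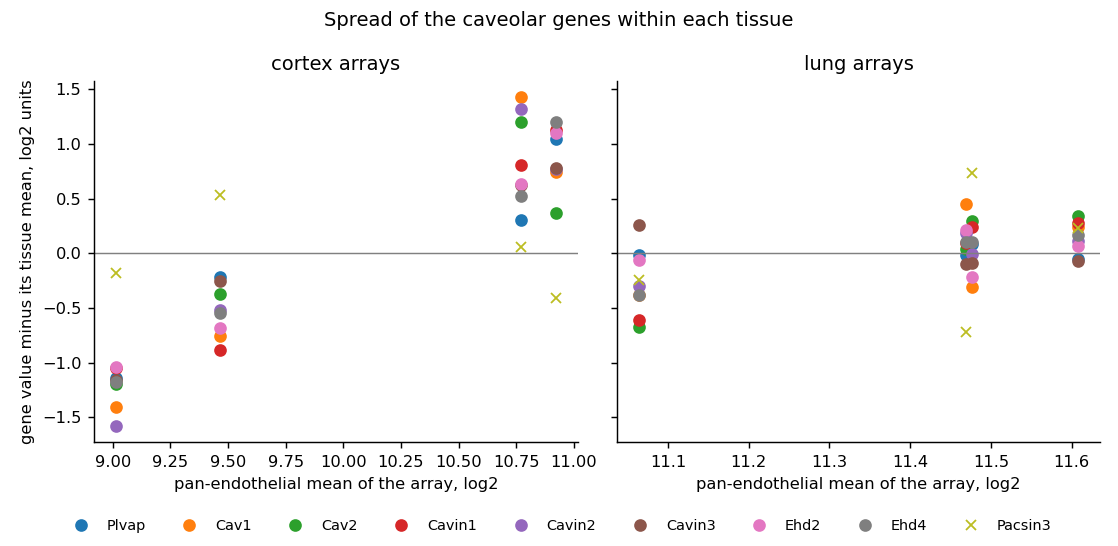
Each gene's log2 value minus its mean over the 4 arrays of the tissue, against the mean of the 33 pan-endothelial genes on the array, for cortex (left) and lung (right, with a narrower horizontal range). In cortex the 8 lower genes lie below 0 on the arrays with pan-endothelial means of 9.01 and 9.46 and above 0 on those with 10.77 and 10.92, while Pacsin3, shown by crosses, does not.

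Because cortex arrays 72 and 18 had low endothelial levels, the comparison was repeated without them, a setting chosen after seeing the data. With the 2 remaining cortex arrays 7 of the 8 genes were still called lower, where 3.47% of all genes were, and the median difference of the 9 genes was -1.42. Differences were smaller, at -1.42 for Plvap, -1.81 for Cav1, -1.77 for Cav2, -3.73 for Cavin2, -1.14 for Cavin3, -1.51 for Ehd2 and -1.30 for Ehd4. Cavin1 lost its call, at -1.02 (adjusted p = 0.0937). The remaining cortex arrays 22 and 19 still had lower pan-endothelial means, 10.77 and 10.92, than any lung array (11.06 to 11.61). This setting therefore narrows the gap in endothelial level and does not remove it.

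The pan-endothelial genes themselves averaged 10.04 ± 0.95 in cortex and 11.40 ± 0.24 in lung. Of the 33, 11 were called lower and 0 higher, where 7.71% of all genes were lower and 10.4% higher. In 31 the mean was lower in cortex, and the median difference was -1.21. Taking each gene minus the pan-endothelial mean of its own array gives its level relative to other endothelial genes. Plvap lay 0.79, 0.00, 0.59 and 0.31 above that mean on cortex arrays 72, 22, 19 and 18, against 1.17, 1.08, 0.90 and 1.48 on the lung arrays. The cortex arrays were still all lower, by a mean of 0.74. Cav1 lay at -0.62, 0.26, -0.58 and -0.82 on the cortex arrays, against 0.71, 1.48, 1.13 and 1.05 on the lung arrays. Cavin2 lay at -2.10, -1.57, -2.27 and -2.71 on the cortex arrays, against 1.17, 1.38, 1.16 and 1.29 on the lung arrays, a mean offset between tissues of -3.41. Only the difference of such an offset between tissues can be read, since levels of different probe sets have no common scale. Ehd4 had the narrowest lung values, 0.86, 0.88, 0.80 and 0.80, against 0.07, -0.17, 0.35 and -0.11 on the cortex arrays. Cavin3 was the only one of the 8 whose arrays overlapped on this scale, at -2.02, -2.45, -2.44 and -2.48 in cortex, against -2.03, -2.03, -2.14 and -1.27 in lung.

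**Figure D3:**
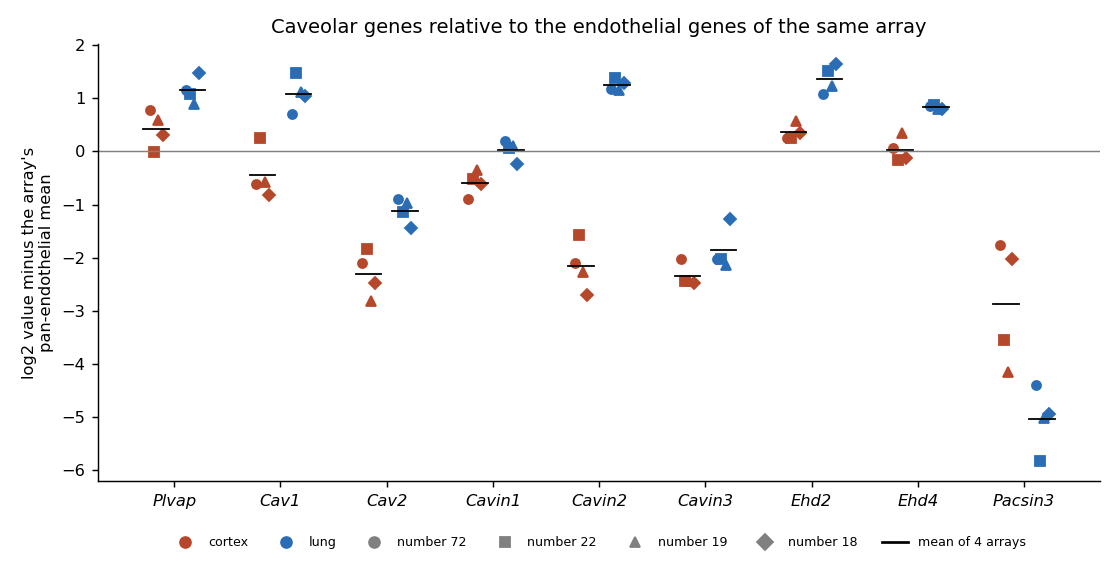
Log2 value of each gene minus the mean of the 33 pan-endothelial genes of the same array, cortex left and lung right for each gene, with black lines at the mean of 4 arrays. Cavin2 shows the widest gap, with means of -2.16 in cortex and 1.25 in lung, and Cavin3 overlaps.

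When every array was shifted to 1 common pan-endothelial mean and the fit was repeated over all genes, 2 of the 9 genes were called lower and 1 higher, where 0.748% of all genes were lower and 43.7% higher. The shift adds 1 fixed amount to the difference of every gene and moved the median of all genes to 1.27, so differences between genes, such as the -2.07 between the median of the 9 genes and that of all, are the same by construction. This fit gave every gene the same standard error, so a call here depends on the size of the difference alone and not on the spread of the gene itself. Cavin2 remained at -3.41 (95% interval -4.56 to -2.27, adjusted p = 1.28e-07) and Cav1 at -1.53 (-2.68 to -0.38, adjusted p = 0.0286). Pacsin3 was higher in cortex, at 2.18 (adjusted p = 0.00165). Its arrays lay higher in cortex without overlap, as did those of 40.2% of all genes on this scale. The other 6 kept a negative difference and were not called by this common error: -1.19 for Cav2 (adjusted p = 0.0698), -1.01 for Ehd2 (0.11), -0.80 for Ehd4 (0.2), -0.74 for Plvap (0.237), -0.62 for Cavin1 (0.314) and -0.48 for Cavin3 (0.44). The genes' own spread was often small on this scale, with 0.15 in cortex and 0.26 in lung for Ehd2, 0.24 in cortex and 0.04 in lung for Ehd4, and 0.34 in cortex and 0.24 in lung for Plvap (SD, n = 4 each). The arrays of 7 genes lay lower in cortex without overlap, against 0.923% of all genes.

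**Figure D4:**
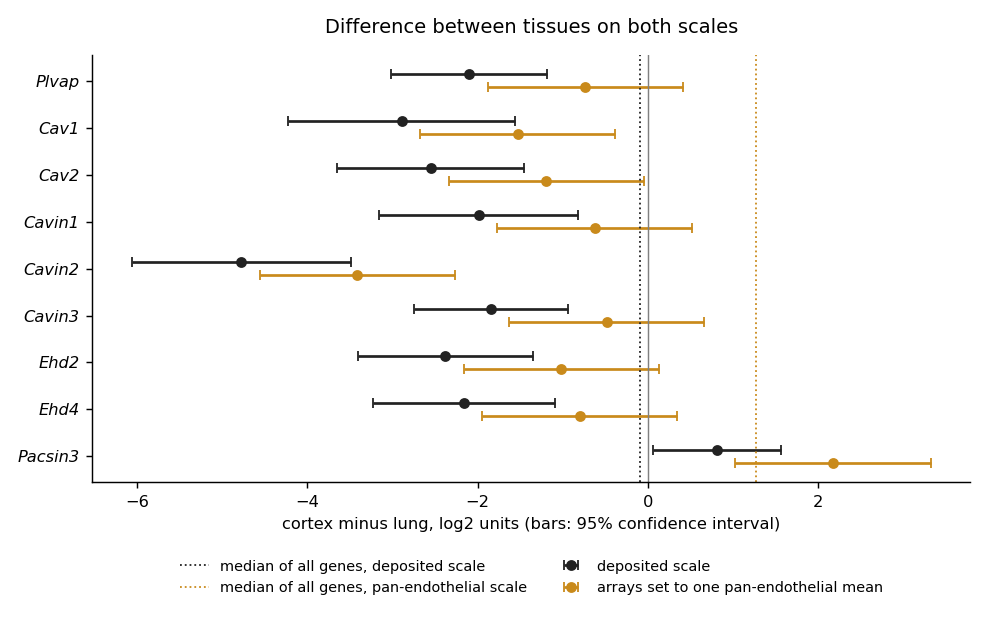
Cortex minus lung in log2 units for each gene with its 95% confidence interval (of equal width for every gene after the shift), as deposited (black) and with every array set to one pan-endothelial mean (ochre). Dotted lines are the medians of all genes on each scale, at -0.09 and 1.27. The intervals of Cavin2, Cav1, Cav2 and Pacsin3 exclude 0 on both scales. Those of Cav2 after the shift (-2.34 to -0.04) and of Pacsin3 as deposited (0.07 to 1.56) do so only narrowly.

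Cavin2 had a larger difference than the other caveolar genes. Against the mean of the other 7 lower genes of the same array it lay at -1.45, -0.93, -1.60 and -1.87 on cortex arrays 72, 22, 19 and 18, against 1.01, 1.11, 1.01 and 1.01 on the lung arrays. The tissues differed by -2.50 on this measure, which does not depend on the shift of an array as a whole. This view of Cavin2 was taken after its values were seen and has no test. For each of the other 7 genes the mean subtracted includes Cavin2, so the low cortex values of Cavin2 move their differences upward. Their differences on this measure, such as 0.68 for Cavin1 and 0.49 for Ehd4, therefore cannot be read apart from that of Cavin2. Cav2 lay at -1.45, -1.24, -2.23 and -1.61 on the cortex arrays, against -1.35, -1.77, -1.44 and -2.13 on the lung arrays.

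Further probe sets of these genes gave the same signs. The 9 genes had 20 probe sets between them, and of the 11 that did not stand for a gene, 6 were called lower, 0 higher and 5 not called in a fit over all probe sets, where 4.88% were lower, and 0 had the opposite sign. The other Cavin2 probe sets differed by -4.61 (adjusted p = 0.000238) and -5.23 (adjusted p = 0.000112). The second Cav2 probe set, dimmer at 6.19 ± 0.16 in cortex and 7.29 ± 0.15 in lung, differed by -1.10 (adjusted p = 0.00145). For Ehd2 the brightest of the others differed by -2.20, and 3 dimmer ones by -0.68, -0.76 and -0.44, the last without a call. The other Cavin1 probe sets, with means below 6.65 in both tissues, differed by -0.22 and -0.25, and the other Pacsin3 probe sets by 1.06 and 0.42, without a call.

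The genes next to the 9 on the chromosome, in RefSeq order, were called lower about as rarely as all genes. Over all genes the shares were 7.71% lower and 10.4% higher. Of 14 neighbours with a probe set, Cav1 and Cav2 not counted, 1 was called lower, 0 higher and 13 were not called. The lower one was Met, the receptor for hepatocyte growth factor, next to Cav1, at 5.95 in cortex and 8.49 in lung, a difference of -2.54 (adjusted p = 0.0112). Tes, on the other side of the Cav1 and Cav2 pair, differed by -0.70 (adjusted p = 0.303).

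The genes most like Plvap over the 8 arrays, by Pearson correlation, were Slc43a3 (0.996), Svil (0.996), Antxr2 (0.994), Acsl5 (0.994) and Chst15 (0.993). Those most like Cav1 were Trim47 (0.995), Actn1 (0.993), Slco2a1 (0.993), Procr (0.992) and Ctsh (0.990). These values rest on 8 arrays in 2 tissue clusters that share the order of the endothelial level in cortex, and serve as a description only. All 10 were called lower in cortex. Chst15 lost its call without cortex array 72 or lung array 19 (adjusted p = 0.0597 and 0.0564), and Actn1 without cortex array 72 or 18 or any 1 lung array (adjusted p from 0.0574 to 0.102). Antxr2, a receptor for anthrax toxin that binds the basement membrane, was at 9.15 ± 0.88 in cortex and 11.26 ± 0.12 in lung, a difference of -2.10 (adjusted p = 0.00615). Procr, the endothelial receptor for protein C, was at 9.98 ± 0.96 in cortex and 11.94 ± 0.10 in lung, a difference of -1.96 (adjusted p = 0.0126). With arrays set to 1 pan-endothelial mean none of the 10 was called, and Chst15 and Actn1 turned positive, at 0.60 and 0.61.

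Of 5 paralogues of these genes, 0 were called lower and 1 higher, with a median difference of 0.60. With so few genes and 7.71% of all genes lower, a count of 0 does not set them apart from genes at large. Of the caveolar genes 8 of 9 were called lower, and no test of the difference was made. With the mean of a gene's probe sets 1 of the 5 was called lower. The higher one was Pacsin1, the neuronal pacsin, at 7.13, 5.42, 6.38 and 5.91 on cortex arrays 72, 22, 19 and 18, against 5.30, 4.47, 4.52 and 4.68 on the lung arrays. It averaged 6.21 ± 0.73 in cortex and 4.74 ± 0.38 in lung, a difference of 1.47 (adjusted p = 0.0231), and lost its call without cortex array 19 or lung array 22, 19 or 18 (adjusted p = 0.0543, 0.0623, 0.0644 and 0.0525). Ehd1, which recycles endosomes, had 10.71 ± 0.38 in cortex and 11.37 ± 0.35 in lung, a difference of -0.65 without a call (adjusted p = 0.102). The muscle caveolin Cav3 had 6.01 ± 0.13 in cortex and 6.37 ± 0.33 in lung, a difference of -0.36, also without a call (adjusted p = 0.215).

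Genes for pinching off and docking vesicles divided by direction. Of 26 measured, 5 were called lower and 7 higher, where 7.71% of all genes were lower and 10.4% higher. The median difference was -0.13. The largest differences were upward. Dnm3, a dynamin, averaged 7.66 ± 0.47 in cortex and 5.43 ± 0.31 in lung, 2.23 higher in cortex (adjusted p = 0.00053). Napb, the beta form of the SNAP adaptor known from brain, averaged 9.42 ± 0.55 in cortex and 7.43 ± 0.38 in lung, 2.00 higher in cortex (adjusted p = 0.00216). Dnm2, the dynamin that every cell uses and that is known to cut caveolae from the membrane, did not pass, with 10.25 ± 0.30 in cortex and 10.48 ± 0.26 in lung, a difference of -0.24 (adjusted p = 0.447). The 5 lower genes, named after their values were seen, were Vamp8 (-1.72), Itsn2 (-1.28), Stx4a (-0.97), Flna (-0.66) and Myof (-0.61). Their number was 3 without cortex array 72, cortex array 18 or lung array 19.

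For the clathrin route, the other main coated pathway of uptake, 1 of 24 measured genes was called lower and 5 higher. Over all genes 7.71% were lower and 10.4% higher, and no test against the caveolar genes was made. The median difference was -0.02. Snap91, a clathrin adaptor of synapses, was at 10.00, 9.27, 9.43 and 9.82 on cortex arrays 72, 22, 19 and 18, against 5.70, 4.57, 4.70 and 4.68 on the lung arrays, a difference of 4.72 (adjusted p = 1.75e-05). Amph, amphiphysin, also known from synapses, averaged 8.41 ± 0.65 in cortex and 4.05 ± 0.15 in lung, a difference of 4.35 (adjusted p = 2.94e-05). The clathrin heavy chain Cltc was at 12.80 ± 0.14 in cortex and 12.83 ± 0.19 in lung, and the light chain Clta at 13.35 ± 0.08 in cortex and 13.42 ± 0.09 in lung, with differences of -0.03 and -0.07 and no call. Both chains were picked after their values were seen.

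Of 9 genes of macropinocytosis and early endosomes limma called 0 in either direction, where 18.1% of all genes were called. Of the 9, 1 had an unadjusted p under 0.05. The largest difference was that of Rab34, a small GTPase of membrane ruffles, at 0.38 (adjusted p = 0.616). The median was 0.25. Rab34 took the other sign with array weights, at -0.01, and without cortex arrays 72 and 18, at -0.12.

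**Figure D5:**
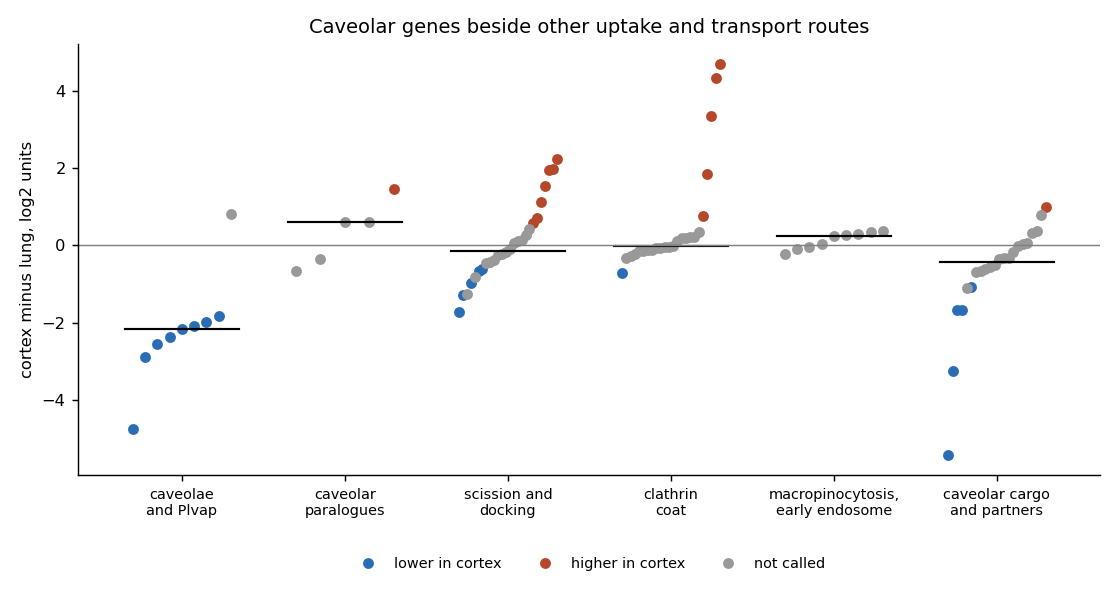
Cortex minus lung in log2 units for the genes of each list, 1 point per gene in rising order, with a black line at the list's median and colour for the call. The caveolar genes lie at a median of -2.16, and the other 5 lists plotted between -0.43 and 0.60.

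Among 22 genes for cargo and partners known from caveolae 5 were called lower and 1 higher, with a median of -0.43. Over all genes 7.71% were lower and 10.4% higher. Aqp1, a water channel, was at 6.43, 6.21, 6.19 and 6.52 on cortex arrays 72, 22, 19 and 18, against 11.53, 11.90, 11.95 and 11.78 on the lung arrays. The arrays of the tissues lay far apart, with a difference of -5.45 (-5.79 to -5.11, adjusted p = 4.95e-07). Cd36, a fatty acid and lipoprotein receptor, averaged 4.43 ± 0.75 in cortex and 7.69 ± 0.30 in lung, a difference of -3.27 (adjusted p = 0.000354). The cortex values of both genes lay under 6.65, where RMA compresses differences. Nos3, the endothelial nitric oxide synthase held in check by Cav1, was not called, with 9.13 ± 0.90 in cortex and 10.23 ± 0.23 in lung, a difference of -1.10 (adjusted p = 0.0982). Nos3 and Kdr are also in the pan-endothelial list. The count of 5 was 3 without cortex array 72 or lung array 22 or 19.

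Mfsd2a, a lipid transporter known in mouse to restrain caveolar transport in brain endothelium, ran opposite to the caveolar genes. It was at 12.09, 12.97, 12.65 and 11.53 on cortex arrays 72, 22, 19 and 18, against 7.34, 6.34, 6.67 and 6.33 on the lung arrays. The difference was 5.64 (4.85 to 6.43), 49.9-fold higher in cortex (adjusted p = 1.92e-05), with lung arrays 22 and 18 under 6.65. Within cortex it had the order of the pan-endothelial mean in part, with arrays 22 and 19 above 72 and 18. Of 6 genes listed as counterparts at the barrier, 1 was called lower, which is Plvap, and 3 higher, where 7.71% of all genes were lower and 10.4% higher. The higher ones were Mfsd2a, the proteoglycan gene Spock1 (1.55, adjusted p = 0.00342) and the glucose transporter Slc2a1 (0.99, adjusted p = 0.00883). Spock1 was dim, at 6.90 in cortex and 5.36 in lung. Cldn5 (-0.13, adjusted p = 0.798) and Lsr (1.42, adjusted p = 0.0743) were not called.

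Caveolae are also made by fibroblasts, smooth muscle and mesothelium, and markers of such cells differed between the sorts. The shares called over all genes were 7.71% lower and 10.4% higher. Of 17 fibroblast and mesenchyme genes 12 were called lower in cortex and 0 higher, with array means of 6.20 to 6.58 in cortex and 7.66 to 9.41 in lung, and 8 were below 6.65 on every cortex array and 3 on every lung array. Of 16 pericyte and smooth muscle genes 5 were lower and 2 higher, with array means of 6.41 to 6.68 in cortex and 6.40 to 7.85 in lung, and 8 below 6.65 on every cortex array and 4 on every lung array. Of 10 mesothelial genes 4 were lower and 1 higher, with means of 5.20 to 5.33 in cortex and 5.16 to 6.62 in lung, with 9 below 6.65 on every cortex array and 5 on every lung array. All 23 neural genes were higher in cortex, with 0 of them below 6.65 on every cortex array and 15 on every lung array. The part of these cells in the caveolar differences was not tested. Within lung the mesenchymal mean was lowest on array 18, at 7.66, and highest on array 72, at 9.41. Of the 9 caveolar genes 5 (Cav1, Cav2, Cavin1, Cavin2 and Ehd4) also had their lowest lung value on array 18. The pan-endothelial mean was lowest on lung array 18 as well, at 11.06, against 11.48, 11.47 and 11.61 on lung arrays 72, 22 and 19. Lung array 18 also had the lowest array weight of all, 0.317.

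The other marker lists varied in level and direction. Of 11 lung epithelial genes 2 were lower and 1 higher (means of 6.66 to 7.61 in cortex and 6.97 to 8.02 in lung). The shares over all genes were 7.71% lower and 10.4% higher. Of 13 macrophage and microglia genes 1 was lower and 4 higher (5.88 to 8.73 in cortex, 5.88 to 6.87 in lung). The macrophage and microglia mean was 8.34, 8.04, 8.73 and 5.88 on cortex arrays 72, 22, 19 and 18, so array 18 was again the lowest of its tissue. Of 9 erythroid genes 0 were lower and 2 higher (6.48 to 7.11 in cortex, 5.87 to 6.29 in lung), and of 6 meningeal genes limma called 0, with 1 at an unadjusted p under 0.05 (6.05 to 6.39 in cortex, 5.34 to 6.46 in lung).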

How the data were processed

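The values deposited by the authors are log2 expression, 1 per probe set, for 4 cortex and 4 lung arrays. RMA and the affy package are named per the submitters' processing notes, with versions not given in the sources used here. RMA sets all arrays to one distribution, so each difference is relative to the rest of the array, and it compresses differences of dim probe sets. The number of arrays limits the precision.

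All 8 columns were mapped by sample, and 0 columns were left out. Of 45101 probe sets 64 controls were dropped, and among the 34945 that name 1 gene the one with the highest mean over the 8 arrays stood for its gene, which gave 18193 genes. The platform annotation gave the names. The tissues were compared by a linear model per gene with moderated variances (limma 3.58.1, R 4.3.3, tissue as the factor, two-sided) and Benjamini-Hochberg adjustment over all genes, with calls at an adjusted p under 0.05. Intervals are at 95%, and each SD is taken between arrays of 1 tissue. The fit was tested on simulated data.

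The genes and lists were chosen with earlier results of these data known. Genes outside the caveolar list were named by rule: from each list the called genes that differed most, 2 at most, or where none was called the gene that differed most, Mfsd2a, Tek, Pecam1 and Cdh5, and the 5 genes most like Plvap and like Cav1. Marker lists are given by their means and counts. Any other name was picked after its values were seen (Dnm2, Ehd1, Cav3, Nos3, Slc2a1, Met, Tes, Cltc and Clta among them). Alternatives were a replicate block, leaving out arrays, pan-endothelial or median scaling, a filter on dim probe sets (under the median of all probe sets, 6.65, on more than 4 arrays), array weights, the mean of a gene's probe sets, and all probe sets. Same-numbered arrays of the tissues deviated together in part, with correlations of 0.335 and 0.307 for 72 and 18 but -0.162 and 0.009 for 22 and 19. Differently numbered arrays reached 0.307 as well. The numbers were not used as pairs in the comparison as reported.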

Additional observations from a re-analysis of the deposited data

Results flagged for a closer look

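In 98 groups of 4 arrays, 7 had 1 array whose gap to the nearest other array, as a share of the group's whole range, was above Dixon's 95% critical value, and chance gives about 1 in 20 such groups. Among the caveolar genes this was Cavin3 in lung, where array 18 was at 9.79 and the others at 9.44 to 9.47 (a share of 0.904), and Ehd4 in lung, where array 18 was at 11.86 and the others at 12.34 to 12.41 (0.882). Without lung array 18 both genes were still called lower in cortex.

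Lung array 18 also lay apart for Pecam1, at 8.92 with the others at 10.82 to 11.05 (0.892), and for Postn, periostin of mesenchyme, at 7.09 with the others at 10.45 to 10.78 (0.913). Cortex array 18 lay apart for Gpr182, an endothelial receptor gene, at 5.26 with the others at 6.62 to 6.71 (0.933), and for C1qb, a complement gene of macrophages, at 7.09 with the others at 10.73 to 11.33 (0.858). Snap91 had lung array 72 at 5.70 and the other lung arrays at 4.57 to 4.70 (0.882).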

How the results depend on the processing

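The 8 caveolar genes kept a negative difference under every alternative run, and 8 were called under the replicate block, median centring, the dim filter, array weights, the mean of probe sets, all probe sets, and without both arrays numbered 19. Number 18 arrays left out together gave 7, with Cavin1 at -1.84 (adjusted p = 0.0647), as did leaving out cortex arrays 72 and 18 (added after seeing the data), with Cavin1 at -1.02. Leaving out 1 array gave 7 to 8 lower and 0 to 1 higher, with Cavin1 from -2.36 to -1.64 and Pacsin3 from 0.58 to 1.06. The replicate block rests on numbers whose pairing of the samples stayed unclear. Same-numbered arrays correlated at 0.335, -0.162, 0.009 and 0.307 for 72, 22, 19 and 18. The block changed the cargo count to 3 lower and called Tek (-1.24, adjusted p = 0.026) and Pecam1 (-1.47, adjusted p = 0.0176), which were not called as reported.

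Pan-endothelial scaling gave 2 caveolar genes lower and 1 higher with a median of -0.80. The differences were -0.74 for Plvap, -1.19 for Cav2, -0.62 for Cavin1, -0.48 for Cavin3, -1.01 for Ehd2, -0.80 for Ehd4 and 2.18 for Pacsin3. As it adds 1 amount to every difference, it turned the small ones of Tek (0.12), Cdh5 (0.10), Chst15 (0.60) and Actn1 (0.61) positive, and its calls rest on 1 error common to all genes. It gave, as lower and higher counts, 136 and 7942 over all genes, 0 and 12 for scission and docking, 0 and 12 for clathrin and 2 and 7 for cargo, with 3 paralogues and 6 macropinocytosis genes higher. Rab34 turned to -0.0114 with array weights and to -0.12 without cortex arrays 72 and 18. The cause of the changes in Rab34 was not tested.

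Over all genes, 1403 were lower and 1888 higher in the comparison as reported, against 1732 and 1660 after median centring, 2197 and 3278 over all probe sets, 2233 lower with array weights, 929 lower without both arrays numbered 18, 792 lower without both numbered 19, and 632 lower and 1057 higher without cortex arrays 72 and 18. Leaving out 1 array gave 956 to 1274 lower and 1393 to 1966 higher. Paralogues had 1 lower with the mean of probe sets and 0 higher without dim probe sets, without both arrays numbered 18, without both numbered 19, or without cortex arrays 72 and 18, and 0 to 1 higher with 1 array left out. Scission and docking had 2 lower without both arrays numbered 18 or without cortex arrays 72 and 18, and 3 to 7 with 1 array left out. It had 4 higher without both arrays numbered 18, 3 without both numbered 19 and 2 without cortex arrays 72 and 18. Clathrin had 0 lower without both arrays numbered 19 or without cortex arrays 72 and 18. Macropinocytosis had 1 higher with the mean of probe sets. Cargo had 9 lower with array weights, 3 without both arrays numbered 19, 3 over all probe sets, and 3 to 5 with 1 array left out.

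The 4 arrays a tissue, pooled litters and values without detection calls limit what can be said of dim genes such as Pacsin3 or Cd36. Sorted cells that are not endothelial, and endothelial share, differ with tissue and cannot be separated from it in these arrays.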

Other observations

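Some genes of the marker lists differed between the tissues by more than most caveolar genes. Gpr182, an endothelial receptor gene, was at 6.31 ± 0.70 in cortex and 10.23 ± 0.53 in lung (SD, n = 4 each), a difference of -3.93 (limma adjusted p = 0.000205). Clec14a, an endothelial surface lectin, was at 8.20 ± 0.91 in cortex and 11.34 ± 0.24 in lung, a difference of -3.14 (adjusted p = 0.000978). In the macrophage list, 1 gene was called lower and 4 higher, where 7.71% of all genes were lower and 10.4% higher. The lower one was Lyve1, a hyaluronan receptor of lymphatic vessels and some macrophages, at 5.76 ± 0.66 in cortex and 10.75 ± 0.15 in lung, a difference of -4.99 (adjusted p = 1.8e-05). C1qb, a complement gene and the largest of the 4, was at 10.05 ± 1.99 in cortex and 5.57 ± 1.49 in lung, a difference of 4.48 (adjusted p = 0.019). It lost its call without cortex array 72 (0.0591) or lung array 19 (0.0507). Gpr182, Clec14a and Lyve1 were also lower in cortex after pan-endothelial scaling, at -2.57, -1.78 and -3.62. Gpr182 and Clec14a are themselves among the 33 genes whose mean sets that scaling.

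In the mesenchymal list Fbln5, an elastic fibre protein, was at 5.94, 7.79, 7.23 and 5.05 on cortex arrays 72, 22, 19 and 18, against 12.31, 13.28, 12.96 and 11.92 on the lung arrays. Its arrays had the order of Cav1 in both tissues, highest on array 22 and lowest on array 18. In the pericyte and smooth muscle list, 5 genes were called lower and 2 higher, where 7.71% of all genes were lower and 10.4% higher. Acta2, the actin of smooth muscle, had a mean of 5.16 ± 0.37 in cortex and 9.82 ± 1.07 in lung, a difference of -4.66 (adjusted p = 0.000298). In lung it was lowest on array 18, at 8.56, as were Cav1 and the pan-endothelial mean, and highest on array 72, at 11.14. Vtn, vitronectin of brain pericytes, went the other way, at 8.20 ± 0.72 in cortex and 5.17 ± 0.33 in lung, a difference of 3.03 (adjusted p = 0.000496).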
